A study of Sus scrofa with 6 samples.

Results

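Transcripts of 9 genes of acetylcholine signalling were measured in pig prefrontal cortex: the 5 muscarinic receptors CHRM1, CHRM2, CHRM3, CHRM4 and CHRM5, the 3 nicotinic subunits CHRNA4, CHRNA7 and CHRNB2, and ACHE, the enzyme that breaks acetylcholine down. They were taken by symbol from the 17201 genes listed in the deposited count files, and all 9 passed the filter on low counts. The family was chosen because CHRM3 had a lower level in the exposed animals, so the CHRM3 difference is described here and supports nothing. The 6 sequenced pigs (Sus scrofa) were 3 months old, and each gave 1 bulk RNA library. The exposed animals, 391, 392 and 393, received valproic acid (VPA; 75 mg/kg) before birth, early in gestation, and animals 401, 402 and 408 were controls labelled as untreated. No transgene or deletion is named for either group, and the labels give no litter, sex or batch. VPA, an antiepileptic drug, inhibits histone deacetylases, and the study used the exposed pigs as an autism model.

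Acetylcholine reaches the cortex mainly through axons of basal forebrain neurons and acts on both receptor families. Muscarinic receptors are G protein-coupled. The products of CHRM1, CHRM3 and CHRM5 couple to Gq, which activates phospholipase C beta and closes the potassium channels of the M current, while those of CHRM2 and CHRM4 couple to Gi, which inhibits adenylyl cyclase and opens GIRK potassium channels. Nicotinic receptors are pentameric cation channels. In the brain CHRNA4 and CHRNB2 subunits assemble into the high-affinity type, and CHRNA7 forms a fast, calcium-permeable type.

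Library totals ran from 16285517 to 17989032 counts, so 1 CPM (the count scaled to the file total) stood for 16.3 to 18.0 reads. Cortical excitatory markers were abundant in all libraries (SLC17A7, 1012 to 1161 CPM). Library VPA 393 stood apart in genes of striatal projection neurons, whose 17 listed markers summed to 813 CPM there, 370 and 394 CPM in the other VPA libraries and 312 to 347 CPM in controls. VPA 393 was the highest library in 16 of the 17, but only narrowly in some. RGS14 had 76.3 CPM in VPA 393 and 76.1 in VPA 391, and FOXP1 44.2 CPM in VPA 393 and 43.5 in control 402. RARB was higher in control 408 (31.4 CPM) than in VPA 393 (30.6 CPM). ISL1 and SIX3 were at 0 in some of the other libraries. EIF1AY, a Y-linked gene, had 450 to 548 counts in 4 libraries and 0 and 2 counts in VPA 392 and control 401, which splits each group in the same way.

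Among all 9 genes CHRM1 was the most highly expressed per gene length. Levels of different genes are compared as deposited FPKM, which divide the count by library total and gene length. CHRM1 averaged 51.3 FPKM over the 6 libraries (range 46.7 to 53.7), 2.80 times the CHRNB2 mean of 18.3 FPKM (16.0 to 19.8), and the ranges did not overlap. ACHE followed at 16.3 FPKM (15.0 to 18.5), and its range overlapped that of CHRNB2. CHRNA7 at 5.09 FPKM (4.84 to 5.56), CHRNA4 at 4.23 (3.47 to 5.25), CHRM3 at 4.04 (3.25 to 4.62) and CHRM4 at 3.14 (2.82 to 3.36) formed a middle group in which each neighbour in the order overlapped the next. CHRM2 at 1.41 FPKM (1.14 to 1.63) lay below all of these, and CHRM5 at 0.585 FPKM (0.394 to 1.16) was lowest. The CHRM5 range reached that of CHRM2 only through VPA 393, and within each of the 6 libraries CHRM2 was higher.

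The place of CHRM3 in that order depends on the gene length behind its FPKM. The deposited FPKM imply a length of 25045 bases for CHRM3, against 2879 for CHRM1, 6711 for CHRM2, 6164 for CHRM4 and 5416 for CHRM5. In the RefSeq table of Sscrofa11.1 CHRM3 has 28 transcripts, where CHRM1, CHRM4 and CHRM5 have 1 each and CHRM2 has 6. CHRM1 held on average 84.8% of the summed muscarinic FPKM and CHRM3 6.68%. In raw counts, which are not corrected for length, CHRM1 held 52.6% and CHRM3 35.9% of the muscarinic reads. Which transcripts of CHRM3 were present cannot be read from counts per gene.

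**Figure D1:**
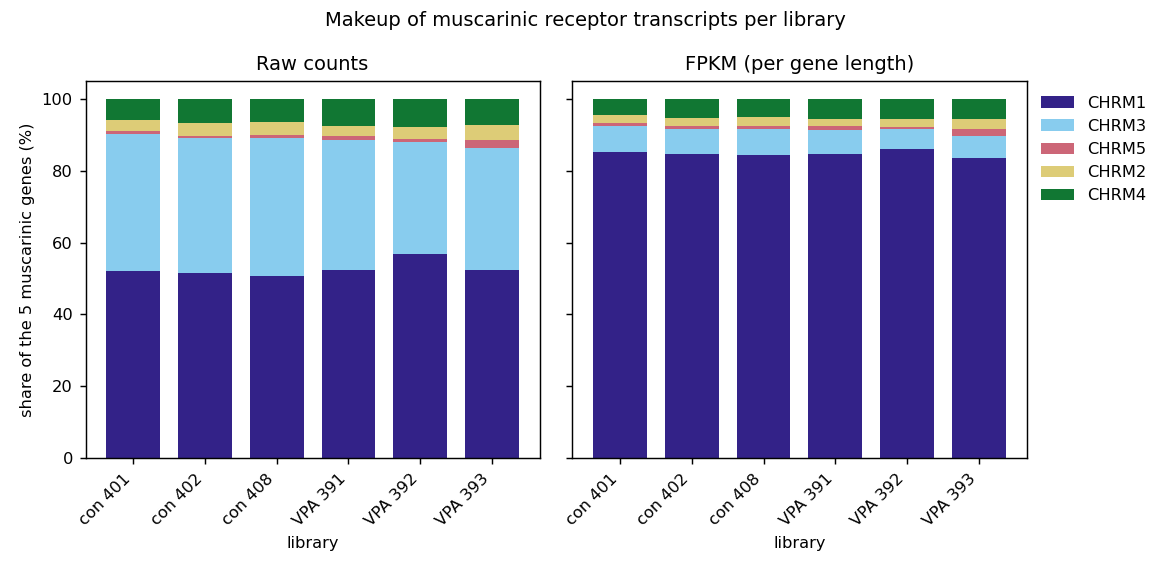
Share (%) of each muscarinic gene in the sum over the 5 muscarinic genes, for each library (con, control), as raw counts (left) and as FPKM (right). CHRM1 is the largest part on both scales, and CHRM3 takes 35.9% of reads on average but 6.68% of FPKM.

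Of the Gq-coupled receptors, CHRM3 was lower in every VPA library than in any control. It had 93.0 CPM in VPA 391, 81.5 in VPA 392 and 93.3 in VPA 393, against 112 CPM in controls 401 and 402 and 116 in control 408. The groups were clearly apart, VPA 392 was the lowest library, and the controls lay within a narrow band. VPA libraries averaged 89.3 ± 6.73 CPM and control libraries 113 ± 2.06 CPM (SD, n = 3 each), a log2 fold change of -0.36 ± 0.062 (SE) or 21.9% less. In bulk tissue, fewer cells of a type and less RNA per cell cannot be told apart. Of 19 glutamatergic neuron markers, all tested and none at 0, 12 had negative fold changes, and they summed to 6060 to 6253 CPM in VPA and 6371 to 6541 CPM in controls. Their most abundant genes were CAMK2A, a synaptic kinase gene (2457 ± 121 CPM in VPA, 2430 ± 55.1 in controls), and NRGN, a postsynaptic calmodulin-binding protein gene (1789 ± 86.0 and 1945 ± 51.0). The part of these markers in the CHRM3 difference was not tested.

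**Figure D2:**
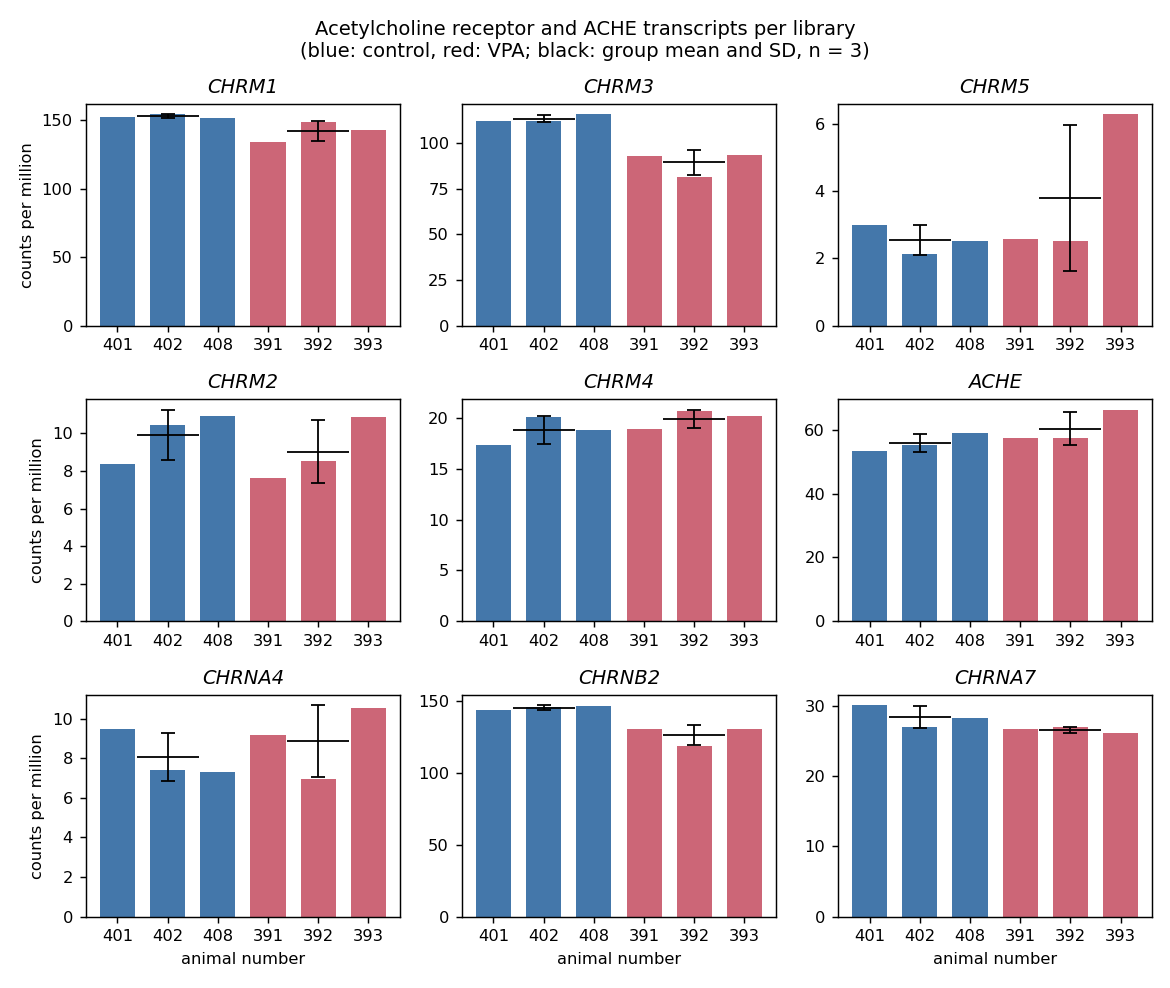
Level (CPM) of each gene in each library, controls in blue and VPA in red, with the group mean and SD (n = 3) in black. CHRM3, CHRNB2 and CHRM1 have no VPA library as high as the lowest control, and CHRM5 is at 6.28 CPM in VPA 393 alone.

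CHRM1, the main cortical muscarinic receptor gene of excitatory neurons, had no difference past the test. It had 134, 149 and 143 CPM in VPA 391, 392 and 393, and 153, 155 and 152 CPM in controls 401, 402 and 408. The groups did not overlap, but VPA 392 came close to the lowest control. The log2 fold change was -0.12 ± 0.050 (edgeR, unadjusted p = 0.040, adjusted p = 0.28). Within a library the FPKM ratio of CHRM1 to CHRM3, which needs no scaling between libraries, was 12.6, 15.9 and 13.4 in VPA 391, 392 and 393 and 11.9, 11.98 and 11.4 in controls 401, 402 and 408. This ratio contains the CHRM3 values for which the family was picked, and it is highest in VPA 392.

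CHRM5, the rarest muscarinic gene, was high in a single library. It had 2.57 CPM in VPA 391, 2.52 in VPA 392 and 6.28 in VPA 393, against 3.00, 2.14 and 2.50 CPM in controls 401, 402 and 408. VPA 391 and VPA 392 fell inside the control range. These levels rest on 113 reads in VPA 393 and on 36 to 54 reads in the other libraries. The log2 fold change of 0.56 ± 0.36 (edgeR adjusted p = 0.47) was -0.0092 without VPA 393. The striatal gene DRD2, a dopamine receptor gene named after its values were seen, had 11.1 CPM in VPA 393. DRD2 had 1.85 and 1.66 CPM in VPA 391 and 392 and 0.171 to 0.667 CPM in controls. PPP1R1B, a striatal gene that encodes DARPP-32, had 215 CPM in VPA 393. PPP1R1B had 71.7 and 71.2 CPM in VPA 391 and 392 and 60.0 to 63.0 CPM in controls. In both genes VPA 393 was the highest library, and every VPA library was above every control. SLC5A7, the choline transporter gene of cholinergic neurons, was also highest in VPA 393, at 3.50 CPM, with 0.593 to 1.31 CPM elsewhere. RGS14, the most abundant striatal marker after PPP1R1B, did not single out VPA 393 (76.1, 75.7 and 76.3 CPM in VPA 391, 392 and 393). Of the 14 tested striatal markers, 13 had positive fold changes, and 11 did without VPA 393 (median log2 fold change 0.27). None had an edgeR adjusted p under 0.05, where 0.362% of all genes did. At an unadjusted p under 0.05 stood 9, all higher in VPA, where 8.69% of all genes were. The part of such tissue in the CHRM5 value was not tested.

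**Figure D3:**
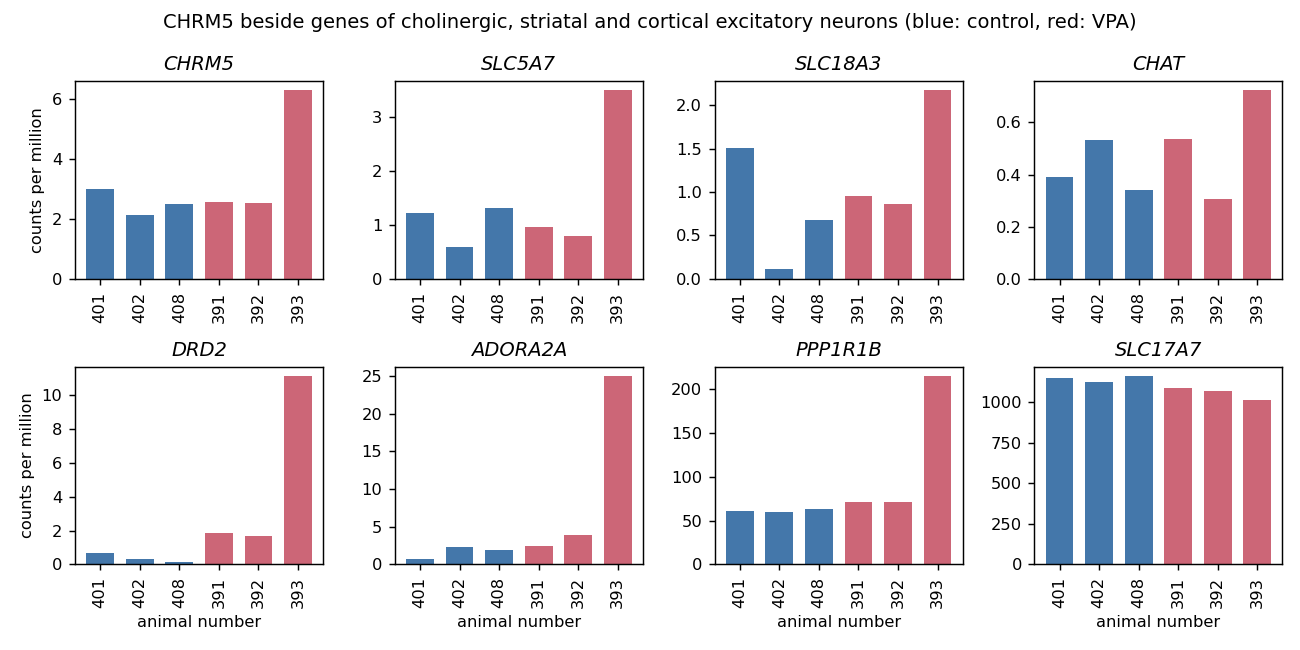
Level (CPM) by library of CHRM5 beside cholinergic neuron genes (SLC5A7, SLC18A3, CHAT), striatal genes (DRD2, ADORA2A, PPP1R1B) and the cortical excitatory gene SLC17A7, with controls in blue and VPA in red. VPA 393 is the highest library in each panel but that of SLC17A7, where it is the lowest; apart from SLC5A7, SLC18A3 and PPP1R1B, the genes shown beside CHRM5 were chosen after their values were seen.

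The Gi-coupled receptor genes showed no difference past the test. CHRM2 had 7.65, 8.54 and 10.9 CPM in VPA 391, 392 and 393, and 8.39, 10.4 and 10.9 CPM in controls 401, 402 and 408. The groups overlapped over most of their range, and in VPA the highest value was again in VPA 393. Its log2 fold change was -0.15 ± 0.16 with a 95% interval from -0.50 to 0.21 (edgeR adjusted p = 0.71). It ran from -0.30 without VPA 393 to -0.05 without VPA 391. CHRM4, which is abundant in striatum as well as cortex, had 19.0, 20.7 and 20.2 CPM in VPA 391, 392 and 393 and 17.4, 20.2 and 18.9 CPM in controls 401, 402 and 408. The CHRM4 groups overlapped, and VPA 393 did not stand out. Its log2 fold change was 0.07 ± 0.094, with a 95% interval from -0.14 to 0.28 (edgeR adjusted p = 0.76). It ran from 0.0076 without control 401 to 0.12 without control 402. CHRM4 shares part of its locus with MDK in the RefSeq table, and reads of the pair cannot be separated here. MDK had 25.1 to 31.9 CPM in VPA and 21.7 to 25.6 CPM in controls.

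Summed over the 5 genes, muscarinic FPKM came to 55.1, 60.1 and 59.6 in VPA 391, 392 and 393, and to 62.1, 63.4 and 62.5 in controls 401, 402 and 408. Most of this sum is CHRM1. The Gq-coupled share of it was 92.3%, 92.3% and 91.8% in VPA 391, 392 and 393 and 93.4%, 92.4% and 92.5% in controls 401, 402 and 408, a mean difference of -0.63 percentage points that again includes CHRM3. That difference was -0.30 points without control 401, and -1.30 points in raw counts, where the Gq-coupled share ran from 88.7% in VPA 393 to 91.2% in control 401. CHRM4 took 5.50% to 5.58% of the muscarinic FPKM in VPA and 4.55% to 5.16% in controls.

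CHRNB2, the main beta subunit of the brain's high-affinity nicotinic receptor, had the next lowest p of the family after CHRM3. It had 131, 119 and 131 CPM in VPA 391, 392 and 393 and 144, 146 and 147 CPM in controls 401, 402 and 408. No VPA library reached the control range, and VPA 392 was the lowest, as it was for CHRM3. The mean was 127 ± 6.91 CPM in VPA and 145 ± 1.71 CPM in controls (SD, n = 3 each), a log2 fold change of -0.21 ± 0.053. CHRNB2 did not pass in edgeR (adjusted p = 0.097) and passed in DESeq2 (adjusted p = 0.040), which called 3.64% of the genes it tested. In the RefSeq table CHRNB2 overlaps ADAR, which had 101 to 109 CPM in VPA and 106 to 111 CPM in controls (edgeR adjusted p = 0.62).

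CHRNA4, the alpha partner of CHRNB2, showed no difference past the test. It had 9.15, 6.94 and 10.5 CPM in VPA 391, 392 and 393 and 9.45, 7.41 and 7.28 CPM in controls 401, 402 and 408. Values in each group were scattered and overlapped. The log2 fold change was 0.13 ± 0.17, with a 95% interval from -0.26 to 0.51 (edgeR adjusted p = 0.77), and -0.0069 without VPA 393. Per length, CHRNB2 stood at 3.34 to 4.60 times CHRNA4 in the VPA libraries and 4.09 to 5.44 times in controls, which overlap. This ratio depends on the lengths that the deposited FPKM imply, 7435 bases for CHRNB2 and 2001 for CHRNA4.

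CHRNA7 had 26.7, 27.0 and 26.2 CPM in VPA 391, 392 and 393 and 30.1, 26.9 and 28.3 CPM in controls 401, 402 and 408. VPA 392 lay just above control 402, so the groups met. Its log2 fold change was -0.11 ± 0.077, with a 95% interval from -0.28 to 0.06 (edgeR adjusted p = 0.54).

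ACHE, which ends the action of acetylcholine by hydrolysis, showed no difference past the test. It had 57.4, 57.4 and 66.2 CPM in VPA 391, 392 and 393 and 53.4, 55.2 and 58.9 CPM in controls 401, 402 and 408. Control 408 was above VPA 391 and VPA 392, so the groups overlapped, and VPA 393 was the highest. Its log2 fold change was 0.10 ± 0.075, with a 95% interval from -0.07 to 0.27 (edgeR adjusted p = 0.55). It was 0.03 without VPA 393 and 0.06 without control 401.

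In the test over all genes (edgeR's quasi-likelihood test, Benjamini-Hochberg, adjusted p under 0.05, here termed called), 1 of the 9 genes was called, CHRM3, lower in VPA. The same test called 0.362% of all 14373 genes tested, and 0.0835% as lower in VPA. Since CHRM3 was picked on this contrast, nothing is read from that count. Next to the threshold stood CHRM3 inside it (adjusted p = 0.047) and CHRNB2 outside it (adjusted p = 0.097). CHRM3 lost its call when any of the 6 libraries was left out (log2 fold change -0.40 to -0.30, adjusted p = 0.054 to 0.15). At an unadjusted p under 0.05 stood 3 of the 9, CHRM1, CHRM3 and CHRNB2, all lower in VPA, against 16.1% of all genes in either direction, 7.45% lower and 8.69% higher. In these 3 genes no VPA library overlapped the control range, which held for 21.2% of all genes tested. The median log2 fold change was -0.11 over the 9 genes and 0.0018 over all genes tested. These counts and this median also include CHRM3, so nothing is read from them either. With 3 libraries a group, an exact permutation test of a single gene cannot go below p = 0.10.

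**Figure D4:**
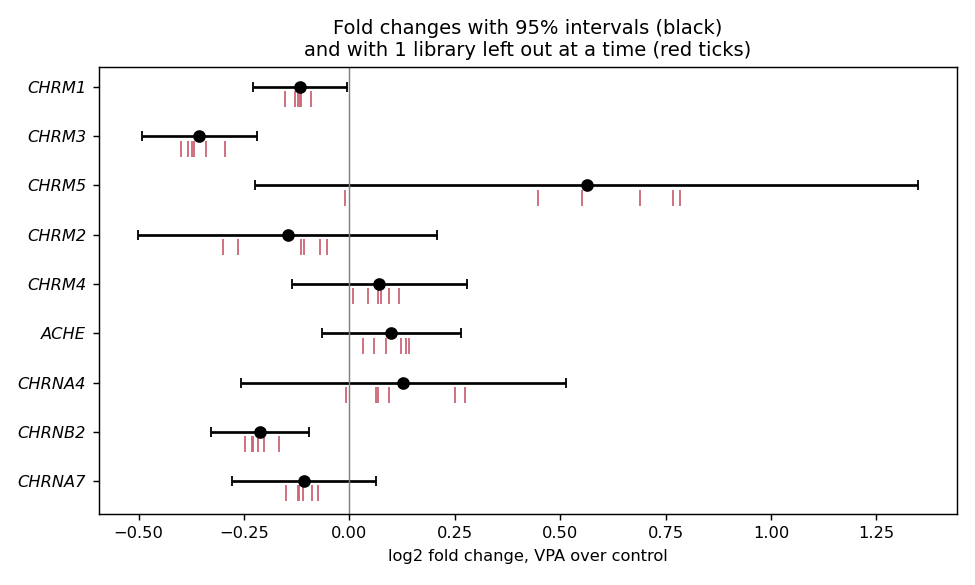
Log2 fold change of VPA over control for each gene with its 95% interval (black) and the values with each of the 6 libraries left out in turn (red ticks). The intervals of CHRM3, CHRNB2 and CHRM1 lie below 0, and the red ticks of CHRM5 and CHRNA4 reach 0 when VPA 393 is left out.

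The genes whose pattern over the 6 libraries was most like that of CHRM3 were CHL1, SV2B and SLC4A10. Likeness was the root mean square difference of log2 CPM after centring each gene on its own mean, and it was 0.031, 0.034 and 0.041 for these genes, against a median of 0.25 over 5360 candidates. CHL1 encodes a neural cell adhesion molecule, SV2B a synaptic vesicle glycoprotein and SLC4A10 a neuronal bicarbonate transporter. CHL1 had 383, 338 and 371 CPM in VPA 391, 392 and 393 and 436, 447 and 457 CPM in controls 401, 402 and 408. As with CHRM3, VPA 392 was the lowest library and the groups did not meet. These genes were picked as the closest to CHRM3 among the 5360 candidates. The small differences and the shared pattern follow from that choice, and nothing is read from them.

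Other nicotinic subunits were present at lower levels. The files list 14 nicotinic subunits, and CHRNA4, CHRNA7 and CHRNB2 together held 78.5% to 80.0% of their summed FPKM in VPA and 82.2% to 84.2% in controls. CHRNB2 alone held 53.9% on average. Of 11 other subunits, 7 passed the filter on low counts, edgeR called 0, and 2 had an unadjusted p under 0.05, where 16.1% of all genes did. CHRNB1, best known as a muscle-type beta subunit, had 8.79, 7.98 and 11.9 CPM in VPA 391, 392 and 393 and 5.89, 6.70 and 6.65 CPM in controls 401, 402 and 408 (log2 fold change 0.56 ± 0.17, adjusted p = 0.14). CHRNA5, an accessory subunit of high-affinity receptors, had 2.45 ± 0.536 and 3.56 ± 0.509 CPM in VPA and controls (adjusted p = 0.30). CHRNA6, known mainly from dopamine neurons, had 6.46 ± 0.573 CPM in VPA and 5.09 ± 0.112 in controls, with no overlap (adjusted p = 0.32).

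Genes that make and store acetylcholine were scarce, while those that break it down were better expressed. CHAT, the synthetic enzyme gene, had 0.307 to 0.723 CPM in VPA and 0.341 to 0.534 CPM in controls and was not tested. SLC18A3, the vesicular acetylcholine transporter gene, had 0.957, 0.860 and 2.17 CPM in VPA 391, 392 and 393 and 1.50, 0.119 and 0.683 CPM in controls 401, 402 and 408. Both lie near the lower limit of detection. PRIMA1, which anchors ACHE in neuronal membranes, had 21.4, 19.2 and 20.2 CPM in VPA 391, 392 and 393 and 16.3, 15.0 and 16.7 CPM in controls 401, 402 and 408. Every VPA library was above every control, with a log2 fold change of 0.33 ± 0.094 that did not pass (edgeR adjusted p = 0.13). Groups were apart in this way, in either direction, in 21.2% of all genes tested. Per length, ACHE at 16.3 FPKM stood far above BCHE, the gene of the other cholinesterase, at 1.33 FPKM (0.972 to 1.80). Of the 5 tested genes of this list edgeR called 0, and PRIMA1 was the only gene with an unadjusted p under 0.05, where 16.1% of all genes were.

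Genes that help nicotinic receptors fold or modulate them had mostly negative fold changes, 7 of 9 tested, with a median log2 fold change of -0.04. EdgeR called 0, and 3 had an unadjusted p under 0.05, all lower in VPA, where 7.45% of all genes were. The listed genes summed to 1183 to 1315 CPM in VPA and 1331 to 1421 CPM in controls, and VSNL1 makes up more of that sum than any other of them. LY6E, of the Ly6 family that holds nicotinic modulators, had 222 ± 9.85 and 242 ± 2.93 CPM in VPA and controls (adjusted p = 0.18). UBXN2A had 48.7 ± 2.46 and 55.0 ± 2.45 CPM, and VSNL1, a neuronal calcium sensor gene, 692 ± 73.3 and 797 ± 55.1 CPM (adjusted p = 0.23 for each). The chaperone genes RIC3 and TMEM35A, named after their values were seen, stood at log2 fold changes of -0.03 and -0.04.

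Downstream of the Gq-coupled receptors, most genes had lower values in VPA, though none was called in edgeR. Of 20 genes of Gq signalling and the M current, 15 had negative fold changes (median -0.12, against 0.0018 over all genes). At an unadjusted p under 0.05 stood 11 of the 20, 10 lower and 1 higher, where 16.1% of all genes did. RGS4, a brake on Gq and Gi signalling, had 826, 784 and 819 CPM in VPA 391, 392 and 393 and 976, 967 and 933 CPM in controls 401, 402 and 408. Its groups were well apart, and its log2 fold change of -0.26 ± 0.047 lay just short of the threshold (adjusted p = 0.054). PRKCB, a protein kinase C gene, had 782 ± 43.4 and 913 ± 26.4 CPM in VPA and controls (adjusted p = 0.073). RGS2, a regulator selective for Gq, had 42.2 ± 3.09 and 52.5 ± 1.78 CPM (adjusted p = 0.077). Of the channel genes of the M current, named after their values were seen, KCNQ3 had a log2 fold change of -0.03 and KCNQ5 of -0.15. Some of these Gq genes are also expressed in excitatory neurons, whose markers summed to less in VPA, as given with CHRM3. The part of that in the list was not tested. Markers of oligodendrocytes, their precursors and astrocytes mostly stood the other way. Microglia markers did so less (median 0.06), and their sums overlapped (559 to 573 CPM in VPA, 461 to 582 CPM in controls). Of 20 oligodendrocyte markers 17 had positive fold changes (median 0.31), and the list summed to 18733 to 21025 CPM in VPA and 14258 to 19014 CPM in controls. Of 12 precursor markers 10 were positive (median 0.20; 1318 to 1517 CPM in VPA, 1075 to 1293 in controls), as were 8 of 11 astrocyte markers (median 0.18; 10078 to 11610 and 9618 to 10470 CPM). None of the oligodendrocyte, precursor and astrocyte markers was called in edgeR, where 0.362% of all genes were, and none was at 0. At an unadjusted p under 0.05 stood 14 oligodendrocyte markers, 13 higher in VPA and 1 lower (CNDP1). So did 6 precursor and 6 astrocyte markers, all higher, where 8.69% of all genes were higher and 7.45% lower. The part of these glial markers in the receptor values was not tested.

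**Figure D5:**
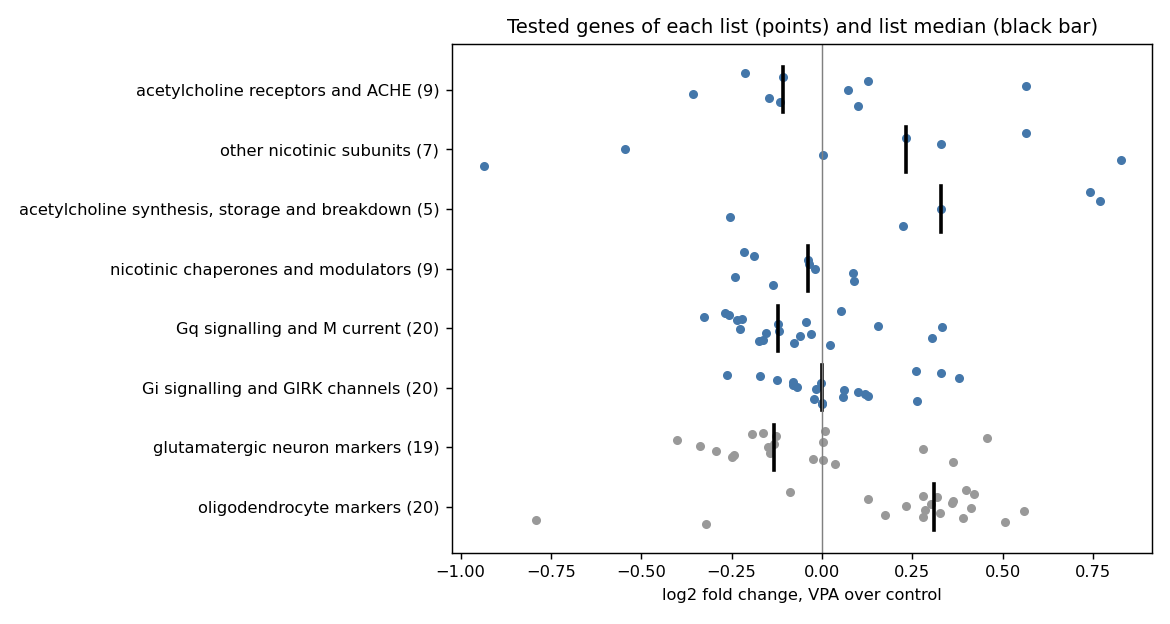
Log2 fold change of VPA over control for each tested gene (points) and the median (black bar) of each list, with the number of genes in brackets; cholinergic lists in blue, cell type markers in grey. The Gq list lies mostly below 0 (median -0.12), as do the glutamatergic markers (median -0.13), and the Gi list is centred near 0.

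Genes downstream of the Gi-coupled receptors were split evenly, 10 positive and 10 negative of 20 tested. EdgeR called 0, and 5 had an unadjusted p under 0.05, 3 higher and 2 lower, where 16.1% of all genes did. The GIRK channel subunit genes KCNJ9 and KCNJ6 were the 2 lower. KCNJ9 had 181, 174 and 171 CPM in VPA 391, 392 and 393 and 188, 223 and 215 CPM in controls 401, 402 and 408 (log2 fold change -0.26 ± 0.066, adjusted p = 0.10). KCNJ6 had 58.4 ± 1.01 and 65.3 ± 1.72 CPM in VPA and controls (adjusted p = 0.19). RGS14, a Gi regulator that is also in the striatal marker list, had 76.0 ± 0.327 and 59.9 ± 11.7 CPM (adjusted p = 0.18). ADCY5 and RGS8, also among the 3 higher and named after their values were seen, were highest in VPA 393. ADCY5 had 110, 105 and 145 CPM in VPA 391, 392 and 393 and 97.2 to 102 CPM in controls. RGS8 had 54.0, 54.7 and 73.5 CPM in VPA 391, 392 and 393 and 49.7 to 50.5 CPM in controls. Over all 5 cholinergic lists, edgeR tested 61 genes, of which 22 had an unadjusted p under 0.05, against 16.1% of all genes. EdgeR called 0 of them, where it called 0.362% of all genes. DESeq2 gave an adjusted p to 53 and called 8, where it called 3.64% of all genes, among them RGS4, RGS2, RGS7, PRKCB, PLCB1 and KCNJ9 as lower and ITPR2, an inositol trisphosphate receptor gene, as higher. KCNJ9 was placed in the Gi list and the rest in the Gq list. RGS4 and RGS7 also regulate Gi signalling, so the Gq and Gi lists are not cleanly separate by pathway.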

How the data were processed

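RNA-seq libraries of prefrontal cortex from 3 VPA and 3 control pigs were made from TRIzol total RNA with a VAHTS Universal V6 kit, per the labels' protocols. The sources used here do not give the aligner, counter, strand, build or annotation. The authors deposited raw counts and FPKM per gene; all 97071 nonzero FPKM values matched count over file total and a fixed gene length (relative tolerance 0.001). CPM were computed from file totals. All 9 genes matched the RefSeq table of Sscrofa11.1 by symbol, which served for names, transcript numbers and overlaps only. Of the listed names, 24 had become dates; they stayed in library sizes. No 2 libraries agreed within sampling noise (chi-square per degree of freedom 5.74 to 12.8). The p-values set the difference between the groups against the spread between animals within a group. The labels number the animals but do not give litters. The exposure was before birth, so a difference between litters and the effect of VPA cannot be told apart here.

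Counts were fitted in R 4.3.3 with edgeR 4.0.16 (filterByExpr, 14373 genes kept; TMM; glmQLFit and glmQLFTest; no covariate; Benjamini-Hochberg over all genes, threshold 0.05). The 95% intervals use the fit's SE and degrees of freedom and are not adjusted for the number of genes. Functions were tested on simulated data. Alternatives were RLE, upper quartile and no scaling factors, other filters, DESeq2 1.42.0, limma 3.58.1 (with voom weights, or with a trend on log2 FPKM after adding 1 or 0.1), EIF1AY as a covariate, and each library left out. The genes and lists were chosen with earlier results of these data known. Named were all 9 genes, the 3 genes of each cholinergic list with the lowest p, the 3 genes most like CHRM3 (mean of at least 10 CPM, SD at least 0.5 of that of CHRM3), the 2 most abundant markers of a list that moved with a gene, and others where said. Some genes of the lists are not reported here.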

Additional observations from a re-analysis of the deposited data

How the results depend on the processing

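No paired analysis was possible because the animal numbers are not shared between the groups. Over 17 alternatives the log2 fold change of CHRM3 kept its sign (-0.40 to -0.28) and passed the threshold in 7; it did not pass in limma-voom (adjusted p = 0.055), on FPKM (0.15 to 0.21) or without any library. Counts of called genes over the whole table were 52, and 141 with no filter, 444 in DESeq2, 30 in limma-voom, 2 on log2(FPKM + 1), 2 with a pseudocount of 0.1 and 1 without the FPKM filter; leaving out a library gave 0 to 66. Of the 9 genes 1 was called, 2 in DESeq2, 0 in limma-voom and 0 in each of the FPKM fits (0 in every fit that left out a library), with 3 of 9 at an unadjusted p under 0.05 in limma-voom and 2 or 3 when a library was left out. Of the cholinergic lists 0 were called, 1 (RGS4) with no filter, in limma-voom and with EIF1AY as a covariate, 8 in DESeq2, and 0 to 2 when a library was left out, the 2 being KCNJ9 and RGS14 without control 401. Among the 9 genes, signs turned only in CHRM5 (-0.0092 to 0.78 with a library left out) and CHRNA4 (-0.0069 to 0.27), each without VPA 393 and never called; signs of single genes of the other lists were not followed. The Gq-coupled share differed by -0.63 percentage points in FPKM (-0.83 to -0.30 with a library left out; -0.30 without control 401) and by -1.30 in raw counts, where CHRM3 weighs more. CHRM5, with 36 to 113 reads a library, is limited by depth.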

Other observations

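Several genes of the cholinergic system had low values in all libraries, and of those named here all but CHRNA2 were left out of the test. These genes were named after their values were seen. CHRND, a muscle-type nicotinic subunit gene, was at 0 in 5 of 6 libraries and at 0.0598 CPM in VPA 391, and CHRNA10 was at 0 in all but control 402 (0.119 CPM). CHRNA2, a subunit gene of some interneurons, had 0.897, 1.23 and 1.56 CPM in VPA 391, 392 and 393 and 0.945, 0.534 and 0.569 CPM in controls 401, 402 and 408 (edgeR log2 fold change 0.83 ± 0.39, adjusted p = 0.33). LHX8 and ISL1, transcription factor genes of forebrain cholinergic neurons, had their highest values in VPA 393 (0.445 and 0.389 CPM) and at most 0.171 and 0.114 CPM elsewhere. The 9 listed markers of cholinergic neurons summed to 11.5 CPM in VPA 393, 5.65 and 6.10 CPM in the other VPA libraries and 4.86 to 7.17 CPM in controls.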
